A study of Caenorhabditis elegans with 12 samples.

Results

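The cytochrome P450 genes of *Caenorhabditis elegans* were compared between 4 genotypes in whole-animal RNA-seq counts. The members are all genes in the count table whose WormBase name begins with *cyp-*, which gave 80 of the 45836 genes listed, and *daf-9*, a P450 gene with another name, was left out. They belong to 15 numbered families and 25 lettered subfamilies, 74 are annotated as coding and 6 as pseudogenes, and 43 lie on chromosome V, 13 on II, 9 on IV, 8 on X, 6 on III and 1 on I. The genotypes, each with 3 biological replicates, were the *nhr-62;eat-2* double mutant, *eat-2(ad465)*, *nhr-62(tm1818)* and wild-type N2. All were fed *E. coli* OP50 at 20 °C, and animals were picked by hand as day 0 adults before any embryo was carried. The *ad465* allele changes a nicotinic acetylcholine receptor subunit of the pharynx and slows feeding, and *eat-2* animals serve as a genetic model of dietary restriction. The *tm1818* allele deletes part of *nhr-62*, which encodes a nuclear receptor related to HNF4, and may leave a short isoform in place. The double mutant was set against *eat-2* to ask which transcripts of food-restricted animals depend on *nhr-62*.

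P450 enzymes are haem proteins that use oxygen, and electrons passed on by the reductase EMB-8, to oxidise small hydrophobic molecules. Their substrates include fatty acids, steroids and foreign compounds. In *C. elegans* the families numbered 13, 25 and 43 resemble the CYP3 enzymes of mammals, which clear drugs, and families 14, 33, 34, 35 and 36 resemble the CYP2 enzymes. Families 29, 31, 32, 37 and 42 resemble the CYP4 enzymes, which hydroxylate fatty acids, and *cyp-44A1* resembles the mitochondrial P450s. Many members of family 35 are induced in the intestine by foreign compounds, and some P450s turn 20-carbon fatty acids into signalling eicosanoids.

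The libraries held 18260311 to 44753083 counts. Reads of *eat-2* itself were few, with 0 to 4.71 normalized counts in *nhr-62;eat-2*, 0.925 to 7.15 in *eat-2*, 8.21 to 16.4 in *nhr-62* and 7.48 to 20.6 in N2. Counts over *nhr-62* averaged 100.2 ± 18.6 in *nhr-62;eat-2*, 144.5 ± 18.5 in *eat-2*, 131 ± 7.14 in *nhr-62* and 153 ± 32 in N2 (SD, n = 3). For *nhr-62* each double mutant library, at 88.8, 90.1 and 121.6, was below each *eat-2* library (130.9 to 165.5) and each N2 library (121.9 to 185.8). Over *nhr-62* reads this gave a log2 fold-change of -0.53 in *nhr-62;eat-2* against *eat-2* (adjusted p = 0.0808), -0.61 in *nhr-62;eat-2* against N2 (adjusted p = 0.0555) and -0.22 in *nhr-62* against N2 (adjusted p = 1), and none of these was called. Between libraries of 1 genotype, chi-square over its degrees of freedom was 9.5 to 56.5 across genes, where counting error alone gives about 1, so none was a repeat of another. All adjusted p-values below come from edgeR's quasi-likelihood test with Benjamini-Hochberg adjustment over the 15344 genes tested. A gene is called higher or lower if it passes 3 thresholds, an adjusted p below 0.05, a change of more than 1.5-fold and an average above 10 normalized counts in the genotypes compared.

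Of the 80 members, 61 had enough reads for the test. The 19 others reached at most 25.4 normalized counts in any library, in *cyp-13A11*, whose values are given with its neighbour *cyp-13A12*. The others not tested were *cyp-13A8*, *cyp-14A3*, *cyp-25A5*, *cyp-25A6*, *cyp-29A1*, *cyp-33B1*, *cyp-33C1*, *cyp-33C6*, *cyp-33C11*, *cyp-33C12*, *cyp-34A1*, *cyp-34A3*, *cyp-34A7*, *cyp-35A1*, *cyp-35B1*, *cyp-35B2*, *cyp-35B3* and *cyp-35D2*. *cyp-35B1*, known as a target of the FOXO factor DAF-16, had 0 to 3.70 normalized counts per library. Only 32 members averaged over 100 normalized counts, and all 80 together took 0.0429% to 0.0614% of the counts of a library.

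RPKM, reads per kb of exon scaled to the TMM-adjusted library size, allows genes to be compared with each other. On this scale *cyp-35A2* had the highest mean level at 40.6, with 25.3 to 77.5 over the 12 libraries. *cyp-31A2* followed at 39.2 (31.1 to 45.8) and *cyp-31A3* at 33.4 (27.5 to 39.9), 2 near-identical genes needed to build the lipid-rich permeability barrier of the eggshell. The mitochondrial-type gene *cyp-44A1* stood at 23.5 (20.7 to 26.6), *cyp-31A5* at 16.3 (12.2 to 21.8) and *cyp-35C1* at 12.8 (4.43 to 23.3). The ranges of neighbours in this order overlapped at each step, except that *cyp-31A3* lay above *cyp-44A1* in every library. These 6 genes took 41.6% to 55.5% of the P450 counts of a library. *cyp-44A1* and *cyp-43A1* (8.84, from 8.05 to 9.81) varied little, whereas *cyp-37B1* ran from 0.0197 to 21.3 and *cyp-25A1* from 0.104 to 4.78.

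**Figure D1:**
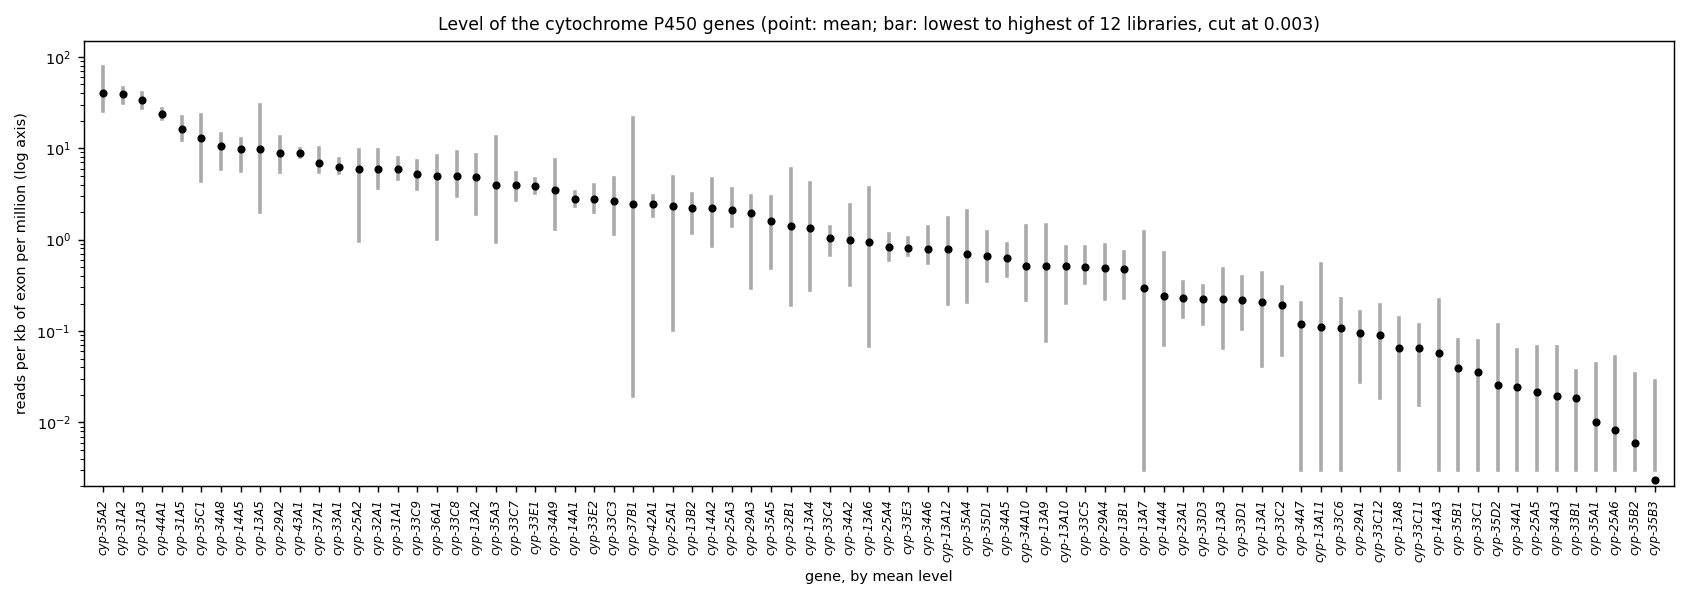
Level of the P450 genes, ordered by mean, in RPKM on a log axis; points are means over 12 libraries and bars run from the lowest to the highest library. *cyp-35A2*, *cyp-31A2* and *cyp-31A3* lead at 40.6, 39.2 and 33.4, and the bar of *cyp-37B1*, from 0.0197 to 21.3, is among the longest.

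In *eat-2* animals 9 P450 genes rose and 6 fell against N2, which is 24.6% of the 61 members tested, beside 27.5% of all genes tested. By direction, 14.8% of members were higher beside 23.8% of all genes, and 9.84% were lower beside 3.61% of all genes. The median log2 fold-change was -0.13 over the members and 0.06 over all genes. At an unadjusted p under 0.05 there were 24 members, beside 59.0% of all genes. When libraries were scaled to their totals and not by TMM, the median of all genes was 0.28, and this split the members called into 12 higher and 3 lower. Calls over all genes then rose from 4213 to 5192 and were not split by direction. Libraries of *eat-2* and N2 did not overlap for 27 members, beside 59.3% of all genes. The RNA came from whole animals, so fewer cells of a type and less RNA per cell cannot be told apart.

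The widest difference was in *cyp-37B1*, a CYP4-like gene. It had 1042, 98.03 and 101.5 normalized counts in *eat-2*, against 1.03, 2.06 and 3.21 in N2. Replicate 1 of *eat-2* stood far above the other *eat-2* libraries, and each *eat-2* library was far above each N2 library. The log2 fold-change was 7.54, standard error 1.13, adjusted p = 0.000469. The N2 libraries held 6 reads of the gene in all, and the ratio of *eat-2* to N2 was 186 with a 95% interval for counting error of 85.2 to 508. Without *eat-2* replicate 1 the ratio was 47.7 (21.5 to 132) and the log2 fold-change 5.5. The gene shares exon sequence on the opposite strand with *F28G4.2*, which had 0 to 10.3 normalized counts in any library.

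*cyp-32B1* and *cyp-32A1*, also CYP4-like, rose as well. *cyp-32B1* had 273, 87.9 and 88.1 normalized counts in *eat-2*, against 26.8, 19.6 and 11.8 in N2 (log2 fold-change 2.93, standard error 0.55, adjusted p = 0.00141). Here too *eat-2* replicate 1 was the highest, and without it the log2 fold-change was 2.17 and the gene was still called. *cyp-32A1* had 455, 450.4 and 369 normalized counts in *eat-2*, against 173, 251 and 195 in N2 (log2 fold-change 1.04, standard error 0.16, adjusted p = 0.000613). Its 3 *eat-2* libraries lay above all N2 libraries.

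Of the CYP2-like genes, *cyp-34A2* had 120.4, 78.6 and 77.0 normalized counts in *eat-2*, against 19.6, 25.8 and 18.2 in N2 (log2 fold-change 2.11, standard error 0.28, adjusted p = 0.00025). The 5 other members of its subfamily that were tested had log2 fold-changes from -0.36 to 0.50 and none was called. *cyp-33C3* had 239.6, 180.3 and 179 normalized counts in *eat-2*, against 94.0, 88.7 and 57.7 in N2 (log2 fold-change 1.31, standard error 0.21, adjusted p = 0.000642). *cyp-33C7*, in the same run of 4 adjacent genes, had 231, 234.9 and 224 normalized counts in *eat-2*, against 151, 148.5 and 121 in N2 (log2 fold-change 0.72, standard error 0.12, adjusted p = 0.000916). In *cyp-34A2*, *cyp-33C3* and *cyp-33C7* alike, every *eat-2* library was above every N2 library.

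Of the CYP3-like subfamily 13A, 3 of 10 tested members rose and 1 fell. *cyp-13A5*, the most abundant of them, had 251.5, 624 and 611.5 normalized counts in *eat-2*, against 100.1, 212 and 114 in N2 (log2 fold-change 1.80, standard error 0.45, adjusted p = 0.00654). *cyp-13A1* was rarer, with 21.5, 18.5 and 14.7 normalized counts in *eat-2*, against 6.19, 2.06 and 4.28 in N2 (log2 fold-change 2.09, standard error 0.43, adjusted p = 0.00234). *cyp-13A2* had 313.5, 324 and 349 normalized counts in *eat-2*, against 205, 249.5 and 121 in N2 (log2 fold-change 0.77, standard error 0.28, adjusted p = 0.0331). *cyp-13A3* had 15.5, 12.02 and 15.9 normalized counts in *eat-2*, against 3.10, 8.25 and 3.21 in N2, and at 1.54, standard error 0.45, adjusted p = 0.0139 it missed a call only because its mean count was under the threshold of 10. The libraries of the genotypes did not overlap for any of these genes. *cyp-13A10* went the other way, with 9.54, 15.7 and 17.1 normalized counts in *eat-2*, against 22.7, 36.1 and 27.8 in N2 (log2 fold-change -1.02, standard error 0.30, adjusted p = 0.0148). Calls in this subfamily depended on single libraries for the weaker genes. *cyp-13A2* was not called without *eat-2* replicate 2 or 3 or N2 replicate 1 or 3 (0.53 to 0.83), *cyp-13A10* not without *eat-2* replicate 1 or N2 replicate 2 (-0.82 and -0.83), and *cyp-13A1* not without *eat-2* replicate 1 or 2 (1.97 and 2.08), where its mean count fell under the threshold.

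The 6 genes that fell belong to families 13, 25, 35 and 36. With total counts as scaling, *cyp-13A10*, *cyp-35A4* and *cyp-36A1* were not called (adjusted p = 0.0575, 0.0507 and 0.111). *cyp-25A1* had 4.77, 19.4 and 19.6 normalized counts in *eat-2*, against 197, 198 and 98.4 in N2 (log2 fold-change -3.46, standard error 0.45, adjusted p = 0.00024). Its neighbour *cyp-25A2* had 42.9, 142 and 154 normalized counts in *eat-2*, against 378, 358 and 254.5 in N2 (log2 fold-change -1.54, standard error 0.40, adjusted p = 0.00777). In both genes *eat-2* replicate 1 was the lowest of all libraries, and every *eat-2* library was below every N2 library. *cyp-25A3*, the third gene of this run on chromosome III, was not called (0.12, standard error 0.30, adjusted p = 0.755).

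*cyp-35D1*, which metabolises the drug thiabendazole, had 23.8, 15.7 and 17.1 normalized counts in *eat-2*, against 53.7, 40.2 and 38.5 in N2 (log2 fold-change -1.23, standard error 0.26, adjusted p = 0.00274). *cyp-35A4* had 13.1, 10.2 and 12.2 normalized counts in *eat-2*, against 22.7, 89.7 and 27.8 in N2 (log2 fold-change -1.98, standard error 0.67, adjusted p = 0.027). N2 replicate 2 stood far above the other N2 libraries in *cyp-35A4*, and without it the value was -1.10 on the log2 scale (adjusted p = 0.17). The call of *cyp-35A4* was also lost without any 1 of the *eat-2* libraries (-2.06 to -1.88, adjusted p from 0.0524 to 0.0821). *cyp-36A1*, which acts downstream of the oxygen-sensing regulators EGL-9 and HIF-1, had 50.1, 206 and 209 normalized counts in *eat-2*, against 409, 302 and 274 in N2 (log2 fold-change -1.07, standard error 0.40, adjusted p = 0.0405). *eat-2* replicate 1 was the lowest by far, and without it the log2 fold-change of *cyp-36A1* was -0.66 (adjusted p = 0.052). That call was also lost without *nhr-62* replicate 1 or 2 or any 1 of the N2 libraries (-1.19 to -0.88). *cyp-36A1* shares exon sequence with *figo-1* on the opposite strand, which had 2630 to 3373 normalized counts per library and a log2 fold-change of -0.16 (adjusted p = 0.141).

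The sum over 12 intestine markers was 2950 to 3320 CPM in *eat-2* and 3420 to 4310 in N2. None of them was at 0 in any library. CPM here are counts scaled to the TMM-adjusted library size. The TMM factors were 1.08 to 1.14 in *eat-2* and 0.932 to 0.95 in N2. They lower the *eat-2* sums beside those of N2. The intestine sum was 3324 in *eat-2* replicate 3, with a factor of 1.08, and 3420 in N2 replicate 2, with a factor of 0.95. Without the factors, as with total counts as scaling, these libraries change order and the intestine sums of the genotypes overlap. Of the 12 markers, 3 were called higher and 2 lower. Their median log2 fold-change was 0.111, and 7 of them had a positive value. The most abundant intestinal P450 genes were not called. *cyp-35A2* had 1131, 1444 and 1345 normalized counts in *eat-2*, against 1605, 2890 and 1303 in N2 (log2 fold-change -0.56, standard error 0.37, adjusted p = 0.206). *cyp-35C1* had 192, 544 and 566 normalized counts in *eat-2*, against 599.8, 896 and 418 in N2 (log2 fold-change -0.55, standard error 0.43, adjusted p = 0.291). The sum over 24 spermatogenesis markers, 1 of them at 0 in some library, was 371 to 463 CPM in *eat-2* and 166 to 327 in N2, with 15 of 23 tested called higher and 0 lower. That over 16 neuron markers, none of them at 0, was 615 to 697 in *eat-2* and 489 to 517 in N2, with 6 called higher and 0 lower. Over all genes, 23.8% were called higher and 3.61% lower in this comparison. The sum over 12 hypodermis markers, 2 of them at 0 in some library, was 1930 to 2050 CPM in *eat-2* and 2010 to 2530 in N2. That over 12 muscle markers, none of them at 0, was 10800 to 13100 in *eat-2* and 9960 to 12300 in N2. In each of these lists 2 markers were called higher and 0 lower. The part of any of these cell types in the P450 values was not tested.

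The eggshell genes passed the test on p but not on fold. *cyp-31A2* had 1429, 1679 and 1625 normalized counts in *eat-2*, against 1712, 1855 and 1931 in N2 (log2 fold-change -0.22, standard error 0.07, adjusted p = 0.027). *cyp-31A3* had 1241, 1348 and 1277 normalized counts in *eat-2*, against 1547, 1573 and 1632 in N2 (log2 fold-change -0.30, standard error 0.06, adjusted p = 0.00324). *cyp-31A5*, of the same subfamily, had 483, 621.5 and 532 normalized counts in *eat-2*, against 597, 714 and 736 in N2 (log2 fold-change -0.32, standard error 0.12, adjusted p = 0.0429). *cyp-31A2* and *cyp-31A3* were below every N2 library in each *eat-2* library, and *cyp-31A5* overlapped between the genotypes. Reads of *cyp-31A2* and *cyp-31A3* cannot be parted with certainty, since the authors kept 1 alignment per read. The sum over 18 oogenesis and eggshell markers was 10300 to 11700 CPM in *eat-2* and 14100 to 16100 in N2, and none of them was at 0 in any library. All 18 had a negative log2 fold-change and 1 was called lower, beside 3.61% of all genes. These small differences rested on the scaling: with total counts the log2 fold-change was 0.01 for *cyp-31A2*, which changed sign, -0.07 for *cyp-31A3* and -0.09 for *cyp-31A5* (adjusted p = 0.925, 0.42 and 0.591). The part of oogenesis in these values was not tested. The pseudogene *cyp-31A1* went the other way, at 0.45, standard error 0.14, adjusted p = 0.0163.

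*cyp-44A1* had 904, 961 and 979.6 normalized counts in *eat-2*, against 1024, 1162 and 1078 in N2 (log2 fold-change -0.20, standard error 0.08, adjusted p = 0.0478, under the fold threshold), and with total counts as scaling the value was 0.03 (adjusted p = 0.83). *cyp-44A1* shares exon sequence on the same strand with *npp-24*, a nuclear pore gene at -0.35 (adjusted p = 0.0125). *cyp-33E2*, a pharyngeal enzyme that makes eicosanoids, had 144, 135 and 150.4 normalized counts in *eat-2*, against 123, 113 and 119.7 in N2 and was not called (log2 fold-change 0.27, standard error 0.17, adjusted p = 0.202). *cyp-42A1* had 145, 93.4 and 110.1 in *eat-2*, against 139, 155 and 123 in N2, and was not called either (log2 fold-change -0.26, standard error 0.18, adjusted p = 0.233).

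**Figure D2:**
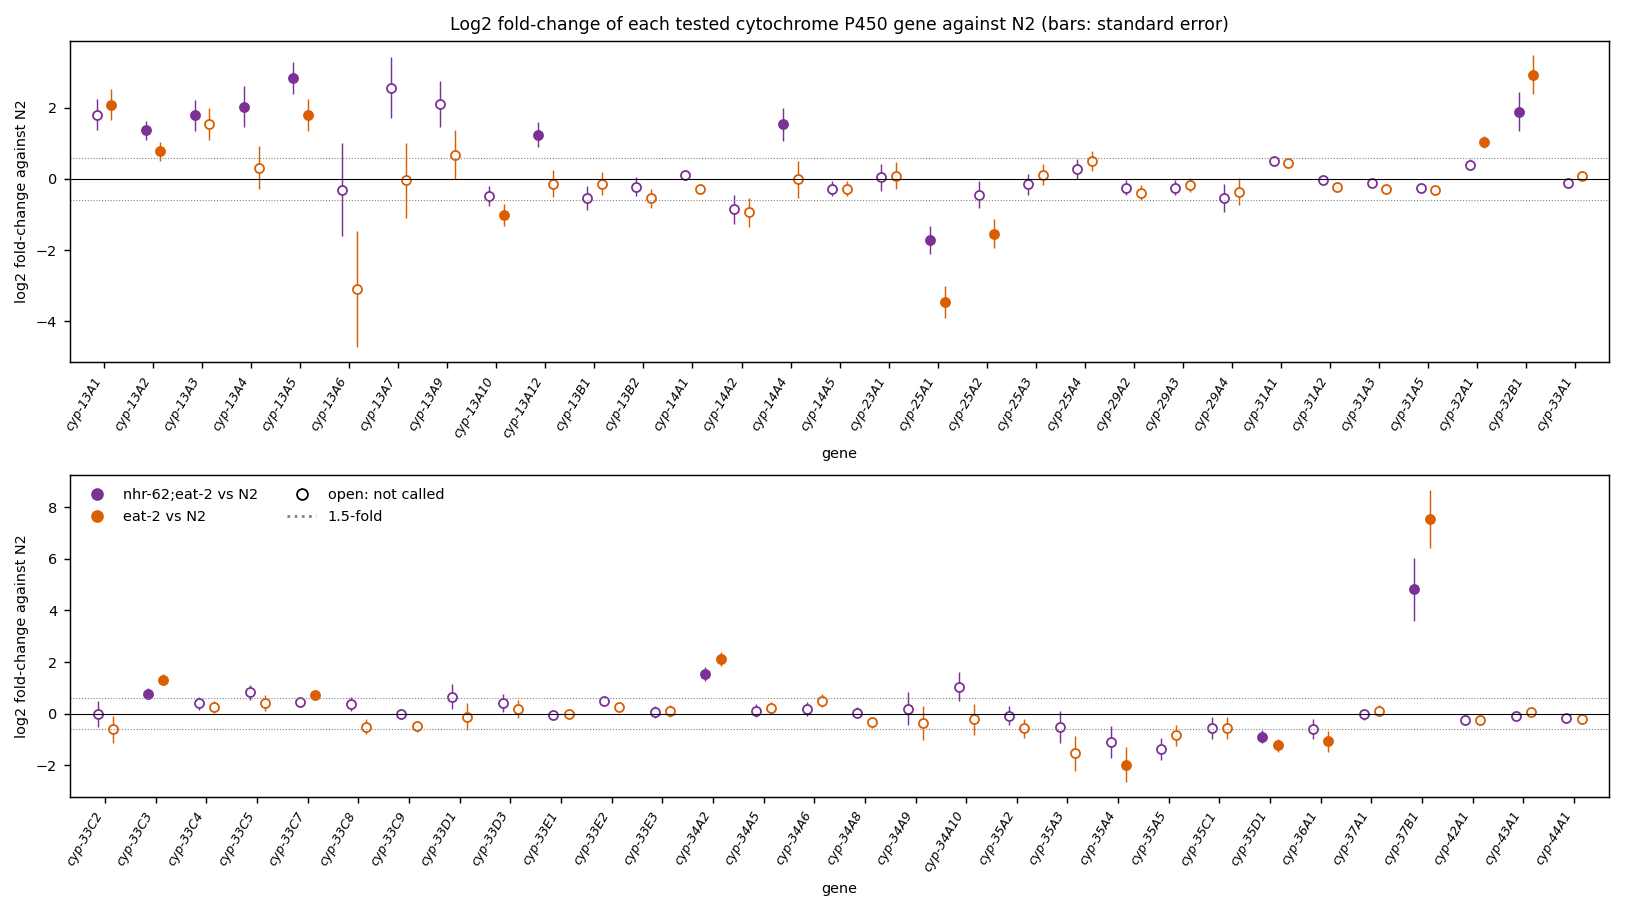
Log2 fold-change of the 61 tested P450 genes in *nhr-62;eat-2* and in *eat-2*, each against N2, with bars of 1 standard error, filled points for genes called and dotted lines at a 1.5-fold change. *cyp-37B1* lies farthest up at 4.83 in *nhr-62;eat-2* and 7.54 in *eat-2*, and *cyp-25A1* lies at -1.71 and -3.46. Both sets of points share the N2 libraries.

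**Figure D3:**
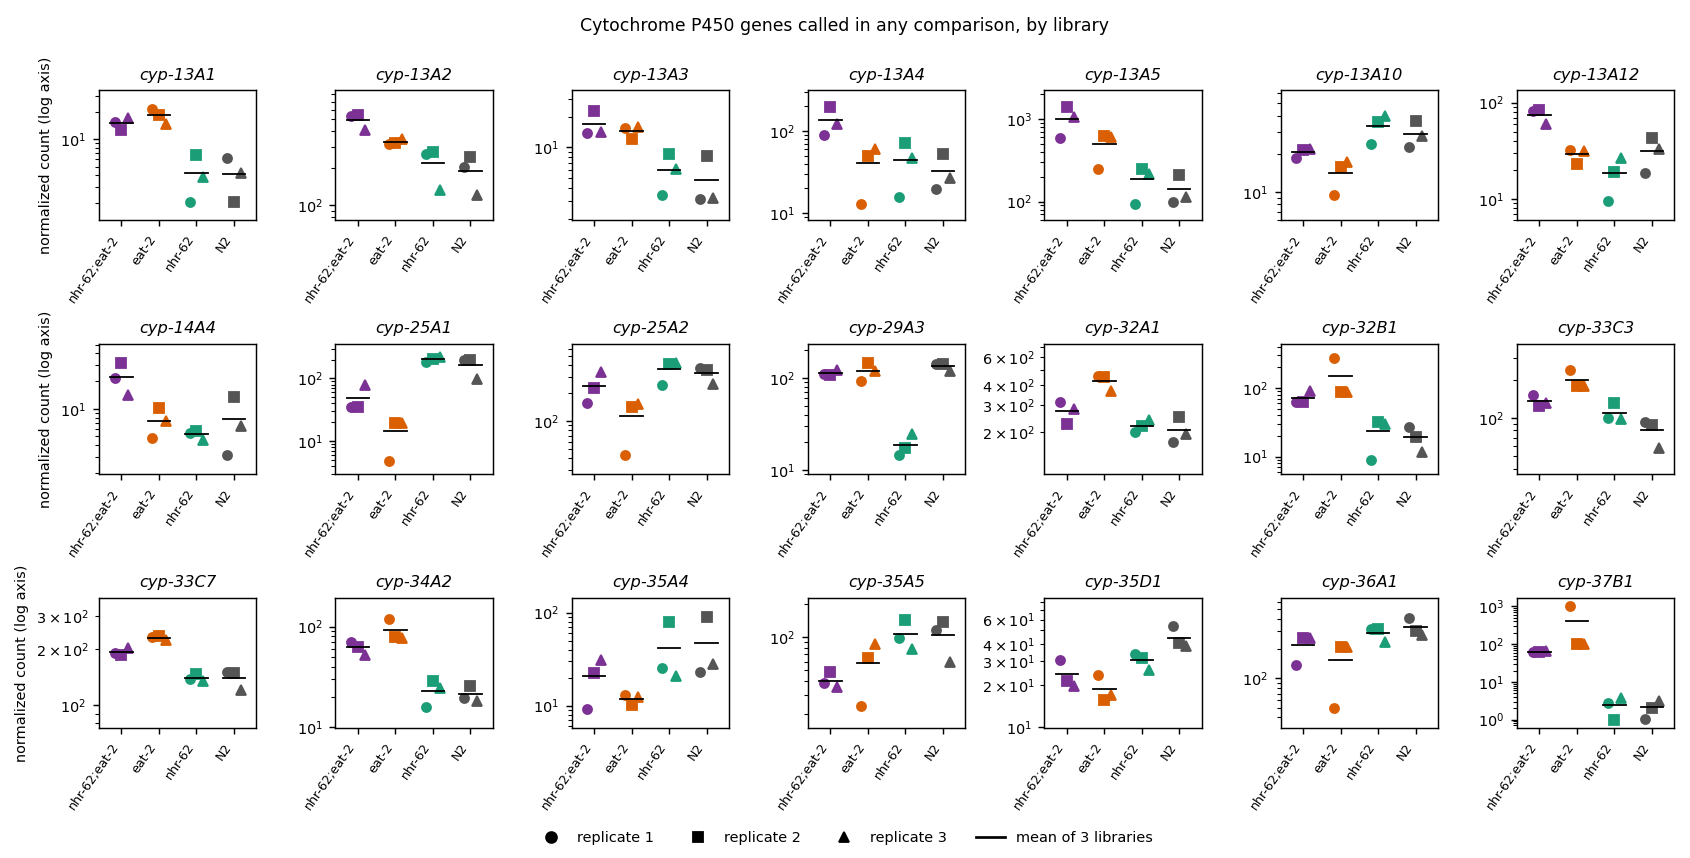
Normalized counts per library, on log axes, of the 21 P450 genes called in any comparison; symbols mark replicates, lines mark means of 3 libraries, and the genotypes run from *nhr-62;eat-2* on the left to N2 on the right. *cyp-29A3* is low in the 3 *nhr-62* libraries, at 14.4 to 24.4, and *cyp-37B1* is above 60 in each library of *nhr-62;eat-2* and *eat-2* and under 4 in the others.

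When *nhr-62* was mutated in *eat-2* animals, P450 genes were called at a rate near that of all genes. Against *eat-2*, 2 members were higher and 2 lower in *nhr-62;eat-2*, 6.56% of those tested, beside 5.43% of all genes. By direction, 3.28% of members were higher beside 0.782% of all genes, and 3.28% were lower beside 4.65%. The split was 6 higher and 1 lower by the DESeq2 test, 6 and 2 with no filter on counts, and 5 and 1 with replicates 2 and 3 only. Over all genes these settings gave 1151, 957 and 743 calls in place of 833. Those calls were not split by direction, so a lean of the members cannot be set beside all genes. The median log2 fold-change was 0.18 over the members and -0.03 over all genes, and 19 members had an unadjusted p under 0.05, beside 33.2% of all genes. Libraries of *nhr-62;eat-2* and *eat-2* did not overlap for 22 members, beside 37.9% of all genes. *cyp-13A12*, which makes an epoxide of eicosapentaenoic acid and acts in the locomotor response to reoxygenation, had 81.2, 83.8 and 60.3 normalized counts in *nhr-62;eat-2*, against 32.2, 23.1 and 31.8 in *eat-2* (log2 fold-change 1.37, standard error 0.36, adjusted p = 0.0362). *cyp-25A1* had 35.2, 35.1 and 78.2 in *nhr-62;eat-2*, against 4.77, 19.4 and 19.6 in *eat-2* (log2 fold-change 1.75, standard error 0.47, adjusted p = 0.0393). In both genes each double mutant library was above each *eat-2* library.

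*cyp-32A1* and *cyp-37B1* fell in the double mutant against *eat-2*. *cyp-32A1* had 314, 225 and 283 normalized counts in *nhr-62;eat-2*, against 455, 450.4 and 369 in *eat-2* (log2 fold-change -0.64, standard error 0.16, adjusted p = 0.0342). *cyp-37B1* had 62.8, 61.3 and 64.1 in *nhr-62;eat-2*, against 1042, 98.03 and 101.5 in *eat-2* (log2 fold-change -2.72, standard error 0.75, adjusted p = 0.042). The genotypes did not overlap in either gene, but the size of the *cyp-37B1* difference depended on *eat-2* replicate 1, and without that library it was -0.67 on the log2 scale (adjusted p = 0.1). The calls of *cyp-25A1*, *cyp-32A1* and *cyp-37B1* had the other sign in *eat-2* against N2, and both comparisons share the *eat-2* libraries.

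Some marker sums moved between these genotypes too, where 0.782% of all genes were called higher and 4.65% lower. The intestine sum was 3790 to 4370 CPM in *nhr-62;eat-2* and 2950 to 3320 in *eat-2*, with 1 marker called higher and 0 lower. The oogenesis and eggshell sum was 14600 to 15200 CPM in *nhr-62;eat-2* and 10300 to 11700 in *eat-2*, all 18 markers had a positive log2 fold-change and 1 was called higher. The spermatogenesis sum was 237 to 324 CPM in *nhr-62;eat-2* and 371 to 463 in *eat-2*, with 7 markers called lower and 0 higher, and the neuron sum was 601 to 611 and 615 to 697, with none called. The hypodermis sum was 1840 to 2430 CPM in *nhr-62;eat-2* and 1930 to 2050 in *eat-2*, and the muscle sum was 10200 to 11500 and 10800 to 13100, with no marker called. The part of these cell types in the P450 values was not tested.

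None of these 4 calls stood under every alternative. The number of members called ran from 0 to 7 when 1 library was left out, with 0 called after leaving out *nhr-62;eat-2* replicate 2 or 3, *eat-2* replicate 1 or *nhr-62* replicate 2. Without these libraries, in that order, 109, 286, 469 and 473 of all genes were called, beside 833 with all 12 libraries. The number of members was 1 for *eat-2* replicate 2, with 250 of all genes called. It was 2 for *nhr-62;eat-2* replicate 1, *eat-2* replicate 3, *nhr-62* replicate 3 or N2 replicate 3, with 495 to 578 of all genes. For N2 replicate 2 it was 7, with 1497 of all genes. The call of *cyp-13A12* was lost without any 1 library of *nhr-62;eat-2* or *eat-2*, *nhr-62* replicate 2 or N2 replicate 3 (1.23 to 1.52). That of *cyp-25A1* was lost without *nhr-62;eat-2* replicate 2 or 3, any 1 *eat-2* library, or *nhr-62* replicate 2 or 3 (1.25 to 2.04). That of *cyp-32A1* was lost without *nhr-62;eat-2* replicate 2 or 3, *eat-2* replicate 1 or 2, or *nhr-62* replicate 2 (-0.66 to -0.51). That of *cyp-37B1* was lost without any 1 library of *nhr-62;eat-2* or *nhr-62*, *eat-2* replicate 1, or N2 replicate 3 (-2.72 to -0.67).

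Set against N2, the double mutant showed 10 P450 genes higher and 2 lower. This is 19.7% of the members tested, beside 6.63% of all genes, with 16.4% of members higher beside 5.25% of all genes and 3.28% lower beside 1.38%. The medians were 0.03 over the members and 0.02 over all genes, and 21 members had an unadjusted p under 0.05, beside 28.5% of all genes. The genotypes did not overlap for 26 members, beside 35% of all genes. Of the 12 genes, 8 were also called in *eat-2* against N2, a comparison with the same N2 libraries, while 4 were called here alone and 7 in *eat-2* alone. The genes called here alone were *cyp-13A3*, *cyp-13A4*, *cyp-13A12* and *cyp-14A4*, and none of them passed edgeR's test of the interaction. Of these, *cyp-13A3* passed the thresholds on adjusted p and fold in *eat-2* against N2 as well, where its mean count was too low for a call. DESeq2's Wald test called the interaction of *cyp-13A12* (adjusted p = 0.0173, against 0.132 by edgeR).

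Subfamily 13A held 5 of the 10 genes that rose. On chromosome II, *cyp-13A2*, *cyp-13A3*, *cyp-13A9*, *cyp-13A4*, *cyp-13A5*, *cyp-13A6*, *cyp-13A7* and *cyp-13A8* follow each other in the order of coding genes and pseudogenes of the reference annotation. *cyp-13A5* reached 588, 1389 and 1069 normalized counts in *nhr-62;eat-2*, against 100.1, 212 and 114 in N2 (log2 fold-change 2.84, standard error 0.46, adjusted p = 0.00254), and was called under all 21 alternatives. *cyp-13A4* had 88.8, 194 and 121 in *nhr-62;eat-2*, against 19.6, 52.6 and 26.7 in N2 (log2 fold-change 2.03, standard error 0.58, adjusted p = 0.0419). *cyp-13A3* had 13.8, 22.5 and 14.1 in *nhr-62;eat-2*, against 3.10, 8.25 and 3.21 in N2 (log2 fold-change 1.78, standard error 0.44, adjusted p = 0.0229). These genes lay higher in each double mutant library than in each N2 library. *cyp-13A2* had 536, 539 and 411 in *nhr-62;eat-2*, against 205, 249.5 and 121 in N2 (log2 fold-change 1.36, standard error 0.28, adjusted p = 0.0087), again with no overlap. *cyp-13A7* and the pseudogene *cyp-13A9* had log2 fold-changes of 2.56, standard error 0.85, adjusted p = 0.0725 and 2.10, standard error 0.64, adjusted p = 0.0544 and missed the threshold. *cyp-13A6* had 22.97, 119.8 and 14.1 in *nhr-62;eat-2*, against 8.26, 181.5 and 8.55 in N2, a spread within each genotype that left no call (log2 fold-change -0.30, standard error 1.31, adjusted p = 0.894). *cyp-13A8* was not tested. Since these genes are close relatives, reads that fit more than 1 of them may have been assigned to either.

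The other member of the subfamily that rose lies on chromosome III. *cyp-13A12* had 81.2, 83.8 and 60.3 normalized counts in *nhr-62;eat-2*, against 18.6, 43.3 and 33.1 in N2 (log2 fold-change 1.24, standard error 0.35, adjusted p = 0.0414). Next to it, *cyp-13A11* had 9.19, 6.31 and 25.4 in *nhr-62;eat-2*, 5.96, 1.85 and 8.56 in *eat-2*, 0, 0 and 3.05 in *nhr-62* and 1.03, 1.03 and 0 in N2, and was not tested. The *nhr-62;eat-2* libraries lay above the *nhr-62* and N2 libraries in both genes. The flanking genes *col-98* and *F14F7.4* had log2 fold-changes of -0.91 (adjusted p = 0.0149) and 0.49 (adjusted p = 0.412) in *nhr-62;eat-2* against N2.

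*cyp-37B1* had 62.8, 61.3 and 64.1 normalized counts in *nhr-62;eat-2*, against 1.03, 2.06 and 3.21 in N2 (log2 fold-change 4.83, standard error 1.22, adjusted p = 0.0255), a ratio of 30 with an interval of 13.5 to 82.9 for counting error. *cyp-32B1* had 62.8, 62.2 and 91.4 in *nhr-62;eat-2*, against 26.8, 19.6 and 11.8 in N2 (log2 fold-change 1.89, standard error 0.55, adjusted p = 0.0456). *cyp-34A2* had 70.4, 63.1 and 52.8 in *nhr-62;eat-2*, against 19.6, 25.8 and 18.2 in N2 (log2 fold-change 1.54, standard error 0.28, adjusted p = 0.00499). In these genes, which also rose in *eat-2*, the libraries of double mutant and N2 did not overlap. *cyp-14A4* had 21.4, 31.5 and 14.1 in *nhr-62;eat-2*, against 3.10, 13.4 and 6.42 in N2 (log2 fold-change 1.54, standard error 0.46, adjusted p = 0.0498). *cyp-33C3* had 153, 125 and 132 in *nhr-62;eat-2*, against 94.0, 88.7 and 57.7 in N2 (log2 fold-change 0.76, standard error 0.21, adjusted p = 0.0363). Both stood close to the threshold on the adjusted p.

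Of the genes that fell, *cyp-25A1* had 35.2, 35.1 and 78.2 normalized counts in *nhr-62;eat-2*, against 197, 198 and 98.4 in N2 (log2 fold-change -1.71, standard error 0.39, adjusted p = 0.0161). *cyp-35D1* had 30.6, 21.6 and 19.8 in *nhr-62;eat-2*, against 53.7, 40.2 and 38.5 in N2 (log2 fold-change -0.90, standard error 0.25, adjusted p = 0.0401). *cyp-25A2* had 156, 226 and 340.2 in *nhr-62;eat-2*, against 378, 358 and 254.5 in N2 and was not called (log2 fold-change -0.44, standard error 0.38, adjusted p = 0.456). Of the genes called in *eat-2* alone, *cyp-13A1* had 15.3, 12.6 and 16.96 normalized counts in *nhr-62;eat-2*, against 6.19, 2.06 and 4.28 in N2, and at 1.81, standard error 0.44, adjusted p = 0.0212 it missed a call only because its mean count was under the threshold. *cyp-33C7* had 189.9, 186 and 204 in *nhr-62;eat-2*, against 151, 148.5 and 121 in N2, and at 0.46, standard error 0.12, adjusted p = 0.0308 it was under the fold threshold. In both genes the genotypes did not overlap. *cyp-35A4* had 9.19, 22.5 and 31.1 in *nhr-62;eat-2*, against 22.7, 89.7 and 27.8 in N2 (log2 fold-change -1.10, standard error 0.62, adjusted p = 0.26). *cyp-36A1* had 138, 255 and 257 in *nhr-62;eat-2*, against 409, 302 and 274 in N2 (log2 fold-change -0.59, standard error 0.39, adjusted p = 0.34). *cyp-13A10* had 18.4, 21.6 and 21.7 in *nhr-62;eat-2*, against 22.7, 36.1 and 27.8 in N2 (log2 fold-change -0.48, standard error 0.29, adjusted p = 0.292). None of these genes was called. The intestine marker sum was 3790 to 4370 CPM in *nhr-62;eat-2* and 3420 to 4310 in N2, and that of the oogenesis markers was 14600 to 15200 and 14100 to 16100. The neuron sum did not overlap, at 601 to 611 and 489 to 517. Those of spermatogenesis (237 to 324 and 166 to 327), hypodermis (1840 to 2430 and 2010 to 2530) and muscle (10200 to 11500 and 9960 to 12300) overlapped. The part of these cell types in the P450 values was not tested in this comparison.

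Many of these calls rested on all 3 libraries of a genotype. The number called was 5, 3 and 6 without *nhr-62;eat-2* replicate 1, 2 and 3, and 6 and 5 without N2 replicate 1 and 3. Over all genes, 685, 852 and 805 and then 1387 and 557 were called without these libraries, beside 1017 with all 12 libraries. *cyp-13A5* and *cyp-34A2* were called under every alternative and *cyp-13A2* under all but the test against a 1.5-fold change. With 1 library left out, the log2 fold-changes behind lost calls were 1.67 to 2.25 for *cyp-13A4* (any 1 library of *nhr-62;eat-2*, *eat-2* replicate 2, *nhr-62* replicate 3, N2 replicate 1 or 3) and 1.5 to 1.57 for *cyp-13A3* (*nhr-62;eat-2* replicate 2, N2 replicate 1 or 3). They were 0.98 to 1.39 for *cyp-13A12* (any 1 of *nhr-62;eat-2*, *eat-2* replicate 3, *nhr-62* replicate 2, N2 replicate 1 or 3) and 1.17 to 1.57 for *cyp-14A4* (any but *nhr-62;eat-2* replicate 3, *eat-2* replicate 1 and N2 replicate 2). They were 4.53 to 5.23 for *cyp-37B1* (any 1 of *nhr-62;eat-2* or N2), 1.64 to 2.21 for *cyp-32B1* (any 1 of *nhr-62;eat-2* or N2, *nhr-62* replicate 2 or 3) and 0.58 to 0.84 for *cyp-33C3* (any 1 of *nhr-62;eat-2*, N2 replicate 2 or 3). They were -1.54 and -1.5 for *cyp-25A1* (*nhr-62;eat-2* replicate 1 or 2) and -0.99 to -0.72 for *cyp-35D1* (*nhr-62;eat-2* replicate 2 or 3, *eat-2* replicate 3, any 1 of *nhr-62* or N2). Without N2 replicate 2, *cyp-13A3* moved to 2.39 and *cyp-14A4* to 2.22.

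**Figure D4:**
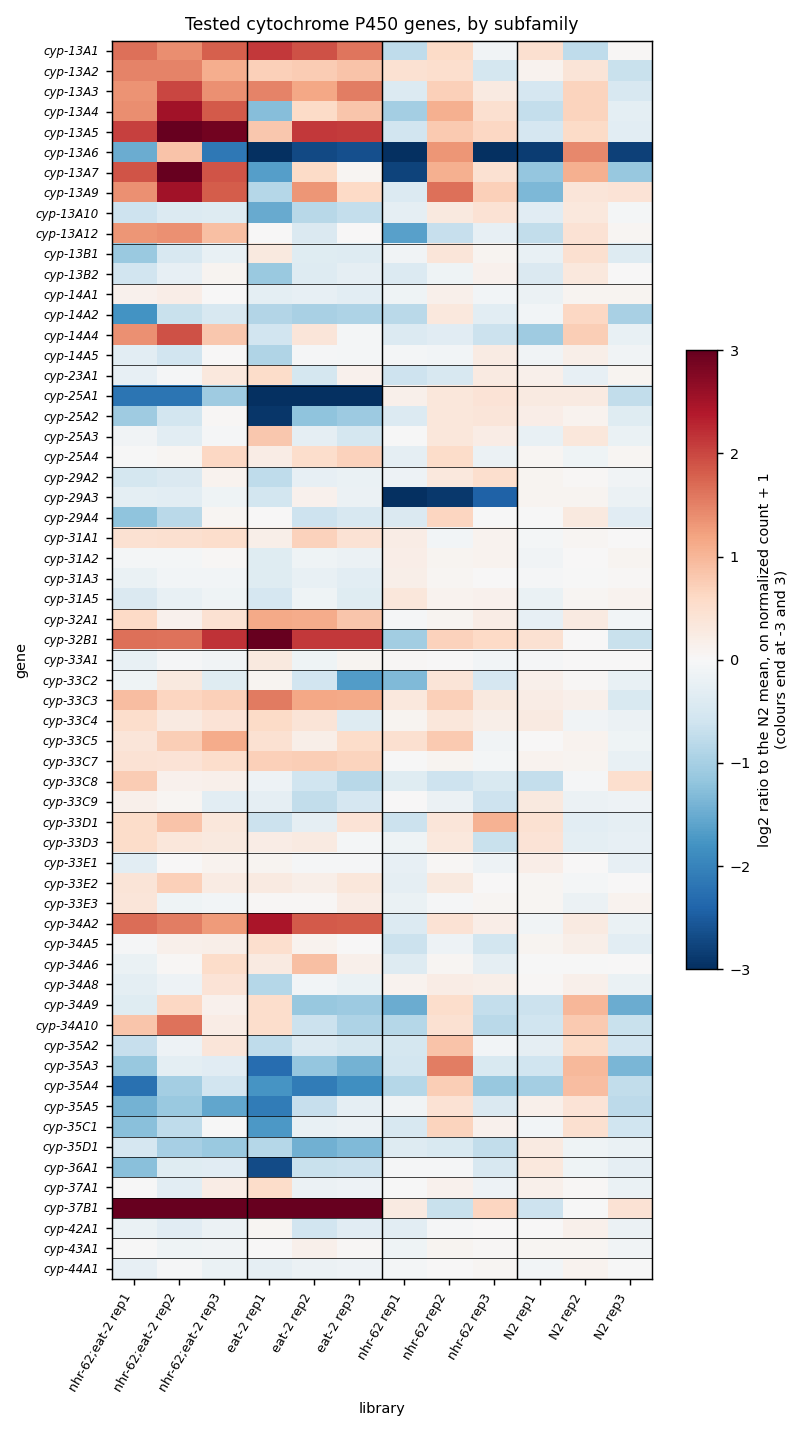
Log2 ratio of each of the 61 tested P450 genes to its N2 mean, on normalized count plus 1, for each of the 12 libraries; genes run down the page by subfamily, libraries run from *nhr-62;eat-2* to N2, and colours end at -3 and 3. The run from *cyp-13A1* to *cyp-13A5* is red in the *nhr-62;eat-2* libraries, *cyp-25A1* is blue in *nhr-62;eat-2* and *eat-2*, and *cyp-29A3* is blue in *nhr-62* alone.

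In *nhr-62* against N2, 1 P450 gene was called. Of 61 members 1.64% was called, beside 0.104% of all genes (0.013% higher and 0.0912% lower), 4 members did not overlap between the genotypes, beside 8.37% of all genes, and 3 members had an unadjusted p under 0.05, beside 3.19% of all genes. *cyp-29A3*, a CYP4-like enzyme that acts in the synthesis of eicosanoids from eicosapentaenoic acid, had 14.4, 17.3 and 24.4 normalized counts in *nhr-62*, against 142.5, 142 and 119 in N2. All 3 *nhr-62* libraries were far below all 3 N2 libraries, by 7.17-fold in the fit (log2 fold-change -2.84, standard error 0.23, adjusted p = 0.00013). By p-value it ranked 4th of the 15344 genes tested. *cyp-29A3* was called under all 21 alternatives, with log2 fold-changes from -3.06 to -2.61.

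The low level of *cyp-29A3* was not shared by the double mutant, which carries *tm1818* as well. *cyp-29A3* had 110.3, 107 and 123.5 normalized counts in *nhr-62;eat-2*, against 91.8, 146 and 119 in *eat-2* (log2 fold-change -0.07, standard error 0.21, adjusted p = 0.845). Libraries of *nhr-62;eat-2*, *eat-2* and N2 overlapped, and only the *nhr-62* single mutant stood apart. The interaction of the mutations, that is the effect of *eat-2* in the *nhr-62* background less its effect in the wild-type background, was 2.77 for *cyp-29A3* (standard error 0.31, adjusted p = 0.00285). It was the only member called for the interaction, beside 0.261% of all genes, and 9 members had an unadjusted p under 0.05, beside 14.3% of all genes. Among the 5 genes on either side, those tested were *egl-8*, *daam-1*, *rps-27*, *picd-1* and *cgp-1*, with log2 fold-changes between *nhr-62* and N2 of -0.05, 0.13, -0.23, -0.13 and -0.02 (adjusted p = 1 for each). Whether the *nhr-62* strain carries a difference at *cyp-29A3* itself was not tested.

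*cyp-33E2* and *cyp-13A12*, the other P450 genes named here for a role with eicosanoids, were not called in *nhr-62* against N2. *cyp-33E2* had 97.8, 146 and 119.6 normalized counts in *nhr-62*, against 123, 113 and 119.7 in N2 (log2 fold-change 0.03, standard error 0.17, adjusted p = 1). *cyp-13A12* had 9.57, 19.2 and 26.7 in *nhr-62*, against 18.6, 43.3 and 33.1 in N2 (log2 fold-change -0.78, standard error 0.38, adjusted p = 1). Libraries overlapped in both genes. The epoxide hydrolases *ceeh-1* and *ceeh-2*, which open the epoxides that such P450s make, were called in none of the comparisons.

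The genes that rose or fell in *eat-2* or in the double mutant were not called in *nhr-62* against N2. *cyp-32A1* had 201, 219 and 241.5 normalized counts in *nhr-62*, against 173, 251 and 195 in N2 (log2 fold-change 0.10, standard error 0.16, adjusted p = 1). *cyp-33C3* had 99.8, 132 and 99.0 in *nhr-62*, against 94.0, 88.7 and 57.7 in N2 (log2 fold-change 0.45, standard error 0.21, adjusted p = 1), the libraries of *nhr-62* being higher without overlap. *cyp-35D1* had 33.5, 31.8 and 25.9 in *nhr-62*, against 53.7, 40.2 and 38.5 in N2 (log2 fold-change -0.54, standard error 0.24, adjusted p = 1), with all *nhr-62* libraries lower. *cyp-25A2* had 248, 416 and 423 in *nhr-62*, against 378, 358 and 254.5 in N2 (log2 fold-change 0.13, standard error 0.38, adjusted p = 1). *cyp-36A1* had 318, 318.5 and 234 in *nhr-62*, against 409, 302 and 274 in N2 (log2 fold-change -0.18, standard error 0.39, adjusted p = 1). In *cyp-25A2* and *cyp-36A1* the genotypes overlapped.

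Against *nhr-62*, the double mutant showed 9 P450 genes higher and 2 lower. All genes were called at a rate of 10.9%, with 14.8% of members higher beside 9.46% of all genes and 3.28% lower beside 1.4%. The libraries of these genotypes did not overlap for 24 members, beside 45.4% of all genes. Of these 11 genes, 9 were also called in *nhr-62;eat-2* against N2, and both comparisons share the double mutant libraries. The 2 others were *cyp-29A3*, at 2.60, standard error 0.23, adjusted p = 7.55e-05, and *cyp-35A5*. *cyp-35A5* had 38.3, 47.8 and 34.9 normalized counts in *nhr-62;eat-2*, against 97.8, 142 and 77.7 in *nhr-62* (log2 fold-change -1.38, standard error 0.42, adjusted p = 0.0387), with no overlap. *cyp-13A12* had 81.2, 83.8 and 60.3 in *nhr-62;eat-2*, against 9.57, 19.2 and 26.7 in *nhr-62* (log2 fold-change 2.02, standard error 0.36, adjusted p = 0.00411). *cyp-14A4* had 21.4, 31.5 and 14.1 in *nhr-62;eat-2*, against 5.47, 5.77 and 4.57 in *nhr-62* (log2 fold-change 2.07, standard error 0.46, adjusted p = 0.0117). In *cyp-13A12* and *cyp-14A4* too the genotypes did not overlap.

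The remaining log2 fold-changes in *nhr-62;eat-2* against *nhr-62* were 4.52 for *cyp-37B1*, 2.46 for *cyp-13A5*, 1.65 for *cyp-32B1*, 1.52 for *cyp-13A3*, 1.44 for *cyp-34A2*, 1.16 for *cyp-13A2* and -2.01 for *cyp-25A1*. In the *nhr-62* libraries *cyp-37B1* had 2.73, 0.962 and 3.81 normalized counts and *cyp-25A1* had 182, 208 and 220.2. *cyp-13A5* had 95.04, 245 and 219 normalized counts in *nhr-62*, *cyp-34A2* had 15.7, 28.9 and 24.4 and *cyp-32B1* had 8.89, 31.8 and 29.7, all below the libraries of the double mutant. *cyp-13A5*, *cyp-13A12*, *cyp-25A1* and *cyp-29A3* were called under every alternative. The number called fell to 7 without *nhr-62* replicate 1, where calls over all genes fell from 1666 to 939. With 1 library left out, calls were lost for *cyp-37B1* (4.56 without *nhr-62* replicate 1 and 4.21 without replicate 2), *cyp-13A2* (1.08 without *nhr-62;eat-2* replicate 1) and *cyp-13A3* (1.21 to 1.53 without *nhr-62;eat-2* replicate 2 or *nhr-62* replicate 1 or 3). They were also lost for *cyp-32B1* (1.23 to 1.91 without any 1 library of *nhr-62;eat-2* or *nhr-62*, or N2 replicate 3) and *cyp-35A5* (-1.53 to -1.13 without any 1 library of *nhr-62;eat-2* or *nhr-62* replicate 1 or 2).

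None of the 6 most abundant P450 genes was called between the double mutant and *nhr-62*. *cyp-31A2* had 1766, 1770 and 1870 normalized counts in *nhr-62;eat-2*, against 2105, 1942 and 1974 in *nhr-62* (log2 fold-change -0.16, standard error 0.07, adjusted p = 0.145). *cyp-31A3* had 1381, 1491 and 1496 in *nhr-62;eat-2*, against 1797, 1658 and 1601 in *nhr-62* (log2 fold-change -0.21, standard error 0.06, adjusted p = 0.0402). *cyp-31A5* had 507, 588 and 619 in *nhr-62;eat-2*, against 859.5, 729 and 740.5 in *nhr-62* (log2 fold-change -0.44, standard error 0.12, adjusted p = 0.027). In these 3 genes each double mutant library was below each *nhr-62* library and the differences were under the fold threshold, and with total counts as scaling they were -0.06, -0.11 and -0.34. The oogenesis marker sum was 14600 to 15200 CPM in *nhr-62;eat-2* and 15500 to 16300 in *nhr-62*, and its part in these values was not tested. *cyp-44A1* had 914, 1062 and 954 in *nhr-62;eat-2*, against 1041, 1098 and 1136 in *nhr-62* (log2 fold-change -0.16, standard error 0.08, adjusted p = 0.158). *cyp-35A2* had 1205, 1746 and 2491 in *nhr-62;eat-2*, against 1340, 3471 and 1833 in *nhr-62* (log2 fold-change -0.28, standard error 0.36, adjusted p = 0.604). *cyp-35C1* had 268, 378 and 636 in *nhr-62;eat-2*, against 453, 1007 and 699 in *nhr-62* (log2 fold-change -0.74, standard error 0.43, adjusted p = 0.236). The ranges of *cyp-35A2* and *cyp-35C1* overlapped between these genotypes.

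Of the 61 genes tested, 21 were called in at least 1 comparison. Among the rest were members of moderate abundance with little difference, such as *cyp-43A1*, the only member of its family, with 386 to 469.8 normalized counts over the 12 libraries and log2 fold-changes from -0.15 to 0.07. *cyp-33E1* had 159 to 230.2 normalized counts and *cyp-33A1* had 244 to 346, and neither was called. *cyp-14A5*, with 250.3 to 558 normalized counts, *cyp-29A2*, with 267 to 652, and *cyp-34A8*, with 266 to 644, had wider ranges and no call. The subfamilies 13B, 23A, 31A, 33A, 33D, 33E, 35C, 37A, 42A, 43A and 44A held no gene called in any comparison.

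P450 genes also differed between libraries of the same genotype. Among 58 members and 14720 genes with a mean over 10 normalized counts, N2 replicate 2 was over 1.5-fold above both other N2 libraries in 13 members, 22.4%, beside 3.3% of all genes. *nhr-62* replicate 2 was above its companions in 13 members, 22.4%, beside 1.17% of all genes. The same 9 members were high in both, 69.2% of each list, whereas over all genes 30 were high in both, 17.4% of the 172 in *nhr-62* and 6.17% of the 486 in N2. They were *cyp-13A4*, *cyp-13A6*, *cyp-13A7*, *cyp-14A2*, *cyp-34A9*, *cyp-34A10*, *cyp-35A2*, *cyp-35A3* and *cyp-35A4*. Over all genes, 7 of 18 same-numbered pairs of libraries had a correlation r over 0.1 between their deviations from the genotype means. Replicate 2 of *nhr-62* and of N2 was not among these pairs, with r = 0.0917. Pairs with different numbers ran from -0.4 to 0.333. Nothing in the labels ties libraries of the same number to each other.

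*cyp-13A6* varied widely within genotypes. It had 22.97, 119.8 and 14.1 normalized counts in *nhr-62;eat-2*, 3.58, 9.25 and 9.78 in *eat-2*, 3.42, 167 and 6.86 in *nhr-62* and 8.26, 181.5 and 8.55 in N2. Replicate 2 was the high library in *nhr-62;eat-2*, *nhr-62* and N2, and no *eat-2* library was high. *cyp-35A3*, an inducible gene of the intestine, had 93.4, 170.3 and 164 normalized counts in *nhr-62;eat-2*, 41.7, 92.5 and 77.0 in *eat-2*, 141.5, 601 and 151 in *nhr-62* and 136, 406 and 79.1 in N2. *cyp-34A9* had 139, 275 and 198 in *nhr-62;eat-2*, 257.5, 80.5 and 83.2 in *eat-2*, 62.9, 259.8 and 109 in *nhr-62* and 114, 362 and 63.1 in N2. In both genes replicate 2 was the highest of the *nhr-62* and N2 libraries, while in *eat-2* it was not raised in *cyp-34A9*. No comparison called *cyp-13A6*, *cyp-35A3* or *cyp-34A9*.

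**Figure D5:**
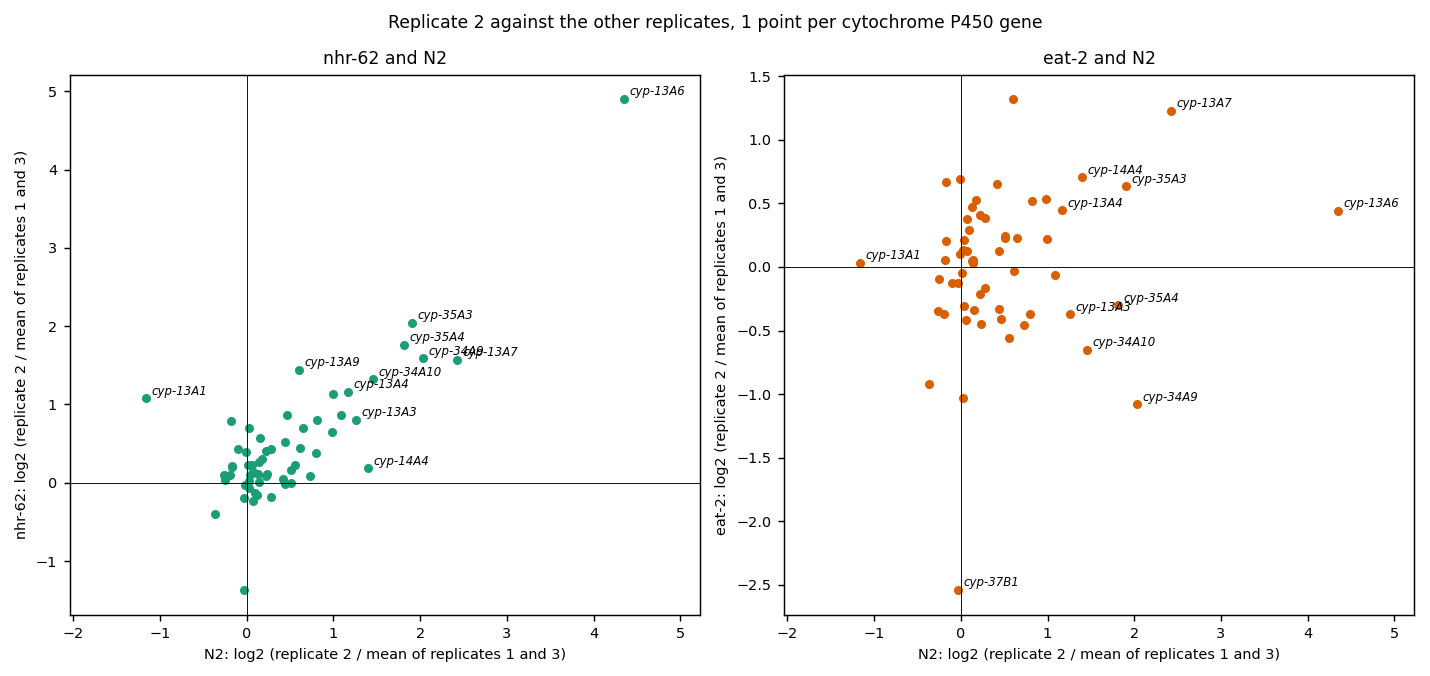
Log2 ratio of replicate 2 to the mean of replicates 1 and 3 for each P450 gene with a mean over 10 normalized counts, *nhr-62* (left panel) and *eat-2* (right panel) on the y axis and N2 on the x axis, with genes far from 0 named. *cyp-13A6*, *cyp-35A3*, *cyp-35A4*, *cyp-34A9* and *cyp-13A7* lie to the upper right in the left panel, and *cyp-34A9*, *cyp-34A10* and *cyp-35A4* lie below 0 in the right panel, whose y axis has a narrower range.

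Other libraries stood below their companions. *eat-2* replicate 1 was over 1.5-fold below both other *eat-2* libraries in 15 members, 25.9%, beside 5.32% of all genes, and above both in 8 members, 13.8%, beside 5.58%. The low genes included *cyp-13A4*, *cyp-13A5*, *cyp-25A1*, *cyp-25A2*, *cyp-35C1* and *cyp-36A1*, and the high ones *cyp-32B1*, *cyp-34A2* and *cyp-37B1*. *nhr-62* replicate 1 was below both companions in 13 members, 22.4%, beside 2.86% of all genes, and N2 replicate 3 in 8 members, 13.8%, beside 2.69%. *nhr-62;eat-2* replicate 2 was above its companions in 6 members, 10.3%, beside 1.88%. N2 replicate 2 had the lowest sum over 24 spermatogenesis markers, 166 CPM beside 243 and 327 in the other N2 libraries, and a lower intestine marker sum (3420) than the others (3618 and 4311). In *nhr-62* replicate 2 the intestine sum was 3999, beside 3815 and 3266. Their part in the P450 values was not tested.

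Of 13 tested genes that supply P450s with electrons and haem, 1 was called higher in *eat-2* against N2 and none lower, and the median log2 fold-change was -0.06. Over all genes, 23.8% were called higher and 3.61% lower. The reductase gene *emb-8* had 6003, 5051 and 5704 normalized counts in *eat-2*, against 6114, 6613 and 6646 in N2 (log2 fold-change -0.21, standard error 0.07, adjusted p = 0.0234, under the fold threshold), and with total counts as scaling the value was 0.01 (adjusted p = 0.894). The gene called was *hrg-2*, a haem-responsive gene of the hypodermis. It had 129, 101 and 105.5 normalized counts in *nhr-62;eat-2*, 79.9, 83.2 and 86.8 in *eat-2*, 50.6, 40.4 and 37.3 in *nhr-62* and 21.7, 21.7 and 16 in N2. Its log2 fold-change was 2.48 in *nhr-62;eat-2* and 2.06 in *eat-2*, each against N2, and 1.37 in *nhr-62;eat-2* against *nhr-62*. None of the 13 genes was called in *nhr-62;eat-2* against *eat-2*, beside 5.43% of all genes. *hrg-5*, also named for its response to haem, had 3.06, 2.70 and 2.83 normalized counts in *nhr-62;eat-2*, 11.9, 13.9 and 11.01 in *eat-2*, 4.10, 7.70 and 5.33 in *nhr-62* and 4.13, 5.16 and 6.42 in N2. Its log2 fold-change was -2.07 in *nhr-62;eat-2* against *eat-2* (standard error 0.37, adjusted p = 0.0109) and 1.22 in *eat-2* against N2 (standard error 0.33, adjusted p = 0.0105), with no overlap in either and no call because its mean count was under the threshold.

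Dafachronic acid synthesis is the pathway in which the P450 DAF-9 makes the ligands of the receptor DAF-12. Of 7 tested genes listed here for this pathway and for its sterols, 3 were called higher in *eat-2* against N2, beside 23.8% of all genes. These were *strm-1*, a sterol methyltransferase gene (log2 fold-change 0.97, standard error 0.18, adjusted p = 0.00151), and *ncr-1* and *ncr-2*, which act in sterol transport (0.68 with adjusted p = 0.00685, and 1.25 with adjusted p = 0.000597). *daf-9* had 66.8, 69.4 and 58.7 normalized counts in *eat-2*, against 56.8, 26.8 and 43.8 in N2 and was not called (0.61, adjusted p = 0.0612). Nor were *daf-36* and *dhs-16* of the same list, with log2 fold-changes of -0.10 and -1.86. None of the 7 was called in *nhr-62;eat-2* against *eat-2*, beside 5.43% of all genes.

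In *eat-2* against N2, 3 of 21 tested genes for regulators of P450 transcription rose, beside 23.8% of all genes, and 3 fell, beside 3.61%. None of the 21 was called in *nhr-62;eat-2* against *eat-2*, beside 5.43% of all genes. Those that rose were *nhr-8*, a receptor of the response to foreign compounds and sterols (log2 fold-change 0.87, adjusted p = 0.0173), *nhr-176*, which acts upstream of *cyp-35D1* (0.93, adjusted p = 0.00405), and the FOXA gene *pha-4* (0.66, adjusted p = 0.00961). Those that fell were *rhy-1* and *nhr-57*, which respond to HIF-1 (-1.09 with adjusted p = 7.42e-05, and -0.96 with adjusted p = 0.00382), and *nhr-25* (-1.09, adjusted p = 0.0247). *nhr-176* was higher while *cyp-35D1* was lower in these libraries (log2 fold-change -1.23), and a link between these genes was not tested.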

How the data were processed

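Total RNA of day 0 adults of 4 genotypes, hand-picked into TRIzol, was made into 12 libraries (TruSeq RNA kit) and sequenced single-end. The authors clipped adapters, aligned reads to WBcel215 with TopHat 1.3, kept 1 alignment per read and counted reads per gene with HTSeq. The deposited values are these raw counts. For HTSeq, version and strand setting are not given in the sources used here. Overlapping genes and near-identical copies are therefore uncertain. Each of the 80 names starting with *cyp-* in the WBcel235 annotation (Ensembl release 115), used here for names, gene order and exon lengths, matched a gene of the table. A blank line was left out and 0 columns were unused.

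Libraries were scaled by TMM and genes filtered with filterByExpr in edgeR 4.0.16 (limma 3.58.1, R 4.3.3). A single quasi-likelihood fit over the 12 libraries gave all comparisons, with Benjamini-Hochberg adjustment over 15344 genes. A normalized count is a count at the average effective library size, and the standard error is the log2 fold-change over the square root of F. Nothing in the labels tells how replicates were raised beyond calling them biological, so p-values measure the spread between these libraries. Depth was 18260311 to 44753083 counts. On simulated data for *eat-2* against N2 (15344 genes), the test found 62% of 100 genes with a true 2-fold change and 90% of 100 with a 4-fold one, and made 7 false calls. Only these genes were changed, in random directions, whereas the real libraries gave 3659 genes higher and 554 lower. The simulated rates may therefore not hold for the real comparison. Alternatives were DESeq2 1.42.0 size factors and test, total counts, no filter, adjusted p alone, a test against a 1.5-fold change, only the genotypes compared, a replicate block, replicates 2 and 3 only, and each library left out. Named genes are the members called in any comparison, the 6 most abundant per length and members with a known role, and, of the gene lists, those called in *eat-2* against N2 or *nhr-62;eat-2* against *eat-2*, with *emb-8* and *daf-9*. The members and lists were chosen with earlier results of these data known. No sequences were used here.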

Additional observations from a re-analysis of the deposited data

Results flagged for a closer look

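*cyp-29A3* stood out because the effect of *eat-2* differed between backgrounds by a test of the difference itself. It was 2.60 on the log2 scale with *nhr-62* mutant (*nhr-62;eat-2* against *nhr-62*) and -0.17 with *nhr-62* intact (*eat-2* against N2), and the interaction was 2.77 (standard error 0.31, adjusted p = 0.00285, edgeR's quasi-likelihood test with Benjamini-Hochberg adjustment over 15344 genes). The means were 114 ± 8.63 normalized counts in *nhr-62;eat-2*, 119 ± 27.2 in *eat-2*, 18.7 ± 5.15 in *nhr-62* and 135 ± 13.7 in N2 (SD, n = 3). The interaction was called under each of its 20 alternatives, with values from 2.41 to 3.00.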

How the results depend on the processing

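No call of a P450 gene turned its direction under any alternative. Of the calls, 8 of 15 in *eat-2* against N2, 0 of 4 in *nhr-62;eat-2* against *eat-2*, 2 of 12 in *nhr-62;eat-2* against N2, 1 of 1 in *nhr-62* against N2, 4 of 11 in *nhr-62;eat-2* against *nhr-62* and 1 of 1 in the interaction stood under every alternative that gave a value. DESeq2 gave no adjusted p for *cyp-37B1*. In the order of these comparisons, leaving out 1 library gave 12 to 16, 0 to 7, 3 to 14, 1 to 1, 7 to 14 and 1 to 1 members called. Over all genes it gave 3653 to 4434, 109 to 1497, 557 to 1387, 9 to 18, 891 to 2027 and 13 to 45 calls. A test against a 1.5-fold change gave 9, 0, 2, 1, 4 and 1 members. In *nhr-62;eat-2* against *eat-2*, the DESeq2 test gave 7 members and no filter gave 8. In *nhr-62;eat-2* against N2, replicates 2 and 3 only gave 7, and for the interaction the DESeq2 test gave 3. With a replicate block the counts were 17, 9, 14, 1, 14 and 1. Its split in *nhr-62;eat-2* against *eat-2* was 8 higher and 1 lower. It left out the calls of *cyp-37B1* there (-1.89, adjusted p = 0.0584) and of *cyp-32B1* in *nhr-62;eat-2* against N2 (1.93, adjusted p = 0.051) and against *nhr-62* (1.63, adjusted p = 0.055). Same-numbered libraries were alike in some cases only: 7 of 18 same-numbered pairs had r over 0.1, and 6 of 12 libraries matched their own number best. Same-numbered pairs ran from -0.22 to 0.3 and pairs with different numbers from -0.4 to 0.333. Whether same-numbered libraries share a batch cannot be told from these values or the labels. With total counts as scaling, the all-gene median on the log2 scale was 0.284 in place of 0.0589 in *eat-2* against N2, -0.145 in place of -0.0335 in *nhr-62;eat-2* against *eat-2*, 0.136 in place of 0.0234 in *nhr-62;eat-2* against N2, 0.123 in place of 0.0288 in *nhr-62;eat-2* against *nhr-62* and -0.161 in place of -0.0306 in the interaction. Over all genes, calls in *eat-2* against N2 were 4213, and 8038 by adjusted p alone and 1842 in the 1.5-fold test. In *nhr-62;eat-2* against *eat-2* they were 833, and 1472 with total counts, 1624 by adjusted p alone, 28 in the 1.5-fold test and 1462 with the block. In *nhr-62;eat-2* against N2 they were 1017, and 1740 by adjusted p alone and 221 in the 1.5-fold test. In *nhr-62* against N2 they were 16, and 7 in the 1.5-fold test and 10 with replicates 2 and 3. In *nhr-62;eat-2* against *nhr-62* they were 1666, and 2977 by adjusted p alone, 234 in the 1.5-fold test and 994 with replicates 2 and 3. For the interaction they were 40, and 201 with DESeq2 and 10 in the 1.5-fold test. The cause of these shifts was not tested. Genes with few reads, such as *cyp-37B1* in N2, limit the precision of a fold.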
